A study of Mus musculus with 8 samples.

Results

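The mitochondrial ribosomal protein genes were taken as all genes whose symbol opens with Mrpl or Mrps and a number, pseudogene symbols left out, which gave 78 of 17264 genes. Their levels were read in 8 libraries of inguinal white adipose tissue (iWAT), the fat depot in which cold brings out heat-producing beige adipocytes. Y1cKO mice were male, carried Ythdf1 flox/flox together with Adipoq-Cre, a transgene that recombines in adipocytes, and so lacked exon 4 of Ythdf1 in those cells, while Y1CTL mice were male Ythdf1 flox/flox without Cre. All were C57BL/6, 9 weeks old and held at 4 °C for 7 days. Ribo-seq, which reads the mRNA pieces shielded by ribosomes, and RNA-seq of polyadenylated RNA were each made from 2 Y1cKO and 2 Y1CTL samples, and 4 parts of 5 of a lysate went to Ribo-seq and 1 part of 5 to RNA-seq. Nothing in the labels states that the replicates came from separate animals, so that the p-values reflect differences among libraries that could be technical in part. Ythdf1 encodes a reader of N6-methyladenosine, and the comparison of genotypes asks which mRNAs changed in level or ribosome occupancy without it.

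Mitochondria have their own ribosome, which makes a small set of respiratory chain proteins from mitochondrial DNA. Its RNAs are mitochondrial, whereas all of its proteins are encoded in the nucleus, translated on cytosolic ribosomes and imported. Some of the proteins descend from bacterial ribosomal proteins and the others are found in the mitochondrial ribosome alone. In thermogenic fat this ribosome is known for supplying core subunits of the complexes that burn fuel.

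Of the 78 members, 49 were named Mrpl and 29 Mrps. By general knowledge of the assembled particle, 51 belong to the large subunit, 26 to the small subunit, and Mrps36, in spite of its name, to the 2-oxoglutarate dehydrogenase complex of the citrate cycle. All members were listed in all 8 libraries and passed the filter on low values (0.5 RPKM or more on average in each assay, RPKM being the reads of a gene scaled to its length and to the depth of the library). RefSeq places 20 members across another coding gene (of those named below, Mrpl19, Mrpl21, Mrpl37, Mrpl49, Mrpl53, Mrps2, Mrps6, Mrps7, Mrps18a, Mrps23 and Mrps25) and lists pseudogenes of 4 (Mrpl23, Mrpl27, Mrpl48 and Mrps36), and as neither the strand setting nor the treatment of shared reads is stated in the sources used here, the values of these genes are uncertain.

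Promoter windows are shown because many members hold 1 of a few short motifs there. RefSeq (GRCm38.p6) gave 75 promoters for 69 members, each with 250 bases before and 50 after the start. The letters GCGCANGCG, like the site of nuclear respiratory factor NRF-1, CCGGAAG, like the site of ETS factors such as GABP, and AAGATGGCG, like the site of YY1, were searched on both strands without mismatches. Overlaps were allowed, since the ETS-like and YY1-like letters can share their AAG. All of these factors are known activators of nuclear genes for mitochondrial proteins. The windows below hold 30 bases, 5′ to 3′ on the strand of the gene, with the motif or its reverse complement in capitals.
Mrpl12, NRF-1-like, chr11:120484547-120484576, plus strand: attgtctccgCGCCTGCGCgtcgcaccgcc
Mrpl17, NRF-1-like, chr7:105811079-105811108, minus strand: ccgagttactGCGCATGCGtcctctgagac
Mrpl58, ETS-like, chr11:115403725-115403754, plus strand: tggcggaccgCCGGAAGagtgagcaccgga
Mrps12, ETS-like, chr7:28741801-28741830, minus strand: aggaggaaccCCGGAAGgggctggaggtag
Mrps18a, ETS-like, chr17:46110968-46110997, plus strand: cacccctgctCCGGAAGcggaagtgcacac
Mrpl35, YY1-like, chr6:71823742-71823771, minus strand: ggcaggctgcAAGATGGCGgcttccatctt
Mrpl37, YY1-like, chr4:107066821-107066850, minus strand: tgcacgggcaAAGATGGCGgcgtccaggta
Mrpl42, YY1-like, chr10:95501903-95501932, minus strand: agattgaagcAAGATGGCGagcgcgcggtg

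The NRF-1-like motif was in 16 of the 75 promoters (21.3%), against 11.3% of 62 promoters of cytosolic ribosomal protein genes, 12.7% of 12783 promoters of genes tested in Ribo-seq and 6.25% of all 32851 promoters. The ETS-like motif was in 26 (34.7%), against 35.5%, 16.7% and 8.86% in the same sets. The YY1-like motif was in 8 (10.7%), against 6.45%, 2.80% and 1.40%. At least 1 of the motifs was in 42 promoters (56.0%), against 51.6% of the cytosolic set and 28.4% for the tested genes. In Mrpl35, Mrpl37 and Mrpl42 the YY1-like motif began 23, 26 and 27 bases after the start, counted from 0 at the first base after the 250 upstream bases. Its letters hold ATG, the start codon. In Mrps27 the motif began at 14, and the transcript listed with the RPKM values has a leader of 17 bases, against 52 bases for Mrpl35. How many YY1-like matches lie over a start codon was not tested. A C followed by 4 pyrimidines at the start, the opening letters of the 5′ terminal oligopyrimidine mRNAs to which cytosolic ribosomal protein mRNAs belong, was found in 0 of the 75 promoters, against 17.7% of the cytosolic set and 2.51% of all promoters. A match is a description of letters and not of binding.

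The libraries differed in ways that bear on all comparisons below. Reads assigned to genes numbered 9035419 to 9511334 in Y1cKO and 7364523 to 11862838 in Y1CTL Ribo-seq, and 12211351 to 16429015 in Y1cKO and 3958284 to 4963613 in Y1CTL RNA-seq, and a member had at least 109 reads in any Ribo-seq and 32 in any RNA-seq library. All 15 adipocyte markers were above 0 in all 8 libraries. Their Ribo-seq medians were 1459 and 1102 RPKM in Y1cKO, against 1212 and 1403 RPKM in Y1CTL. Their RNA-seq medians were 731 and 597 RPKM in Y1cKO, against 493 and 360 RPKM in Y1CTL. Between genotypes all 15 had RNA-seq differences above 0, against 67.2% of all genes (median log2 0.57, against 0.17). The median of 19 T and B lymphocyte markers was 29.1 to 39.7 RPKM in all Ribo-seq libraries and 14.6 RPKM in Y1CTL RNA-seq replicate 2, but 0 to 0.203 RPKM in the other RNA-seq libraries, although both assays were labelled as portions of the same lysates. Their summed level was 889 to 1190 RPKM in Ribo-seq, 343 RPKM in Y1CTL RNA-seq replicate 2 and 3.47 to 5.03 RPKM in the others, where 2, 2 and 12 of the 19 were at 0, and Cd3e, a subunit of the T cell receptor complex, was at 0 in Y1CTL RNA-seq replicate 1. For 17 skeletal muscle markers the median reached 18.5 RPKM in 1 library, RNA-seq of Y1cKO replicate 1, and the other libraries had 0.566 RPKM or less. The 20 beige and brown adipocyte markers had Ribo-seq medians of 85.3 and 84.3 RPKM in Y1cKO, against 174 and 40.1 RPKM in Y1CTL, and RNA-seq medians of 9.91 and 28.1 RPKM in Y1cKO, against 27.5 and 48.8 RPKM in Y1CTL. Ythdf1 itself had Ribo-seq values of 12.7 and 15.7 RPKM in Y1cKO, against 17.3 and 16.0 RPKM in Y1CTL, and RNA-seq values of 7.17 and 7.98 RPKM, against 8.01 and 11.5 RPKM, and the reads cover the whole gene and all cells of the tissue.

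The members were abundant on ribosomes and moderately abundant as transcripts. Over the 4 Ribo-seq libraries the median member had 74.0 RPKM (26.5 to 469), against 11.4 RPKM for the median of all genes tested, and all 78 were above the median gene. Over the 4 RNA-seq libraries the median member had 17.3 RPKM (2.75 to 75.6), against 6.55 RPKM for all genes, and 65 of 78 were above the median gene. Together they took 0.375% to 0.435% of all Ribo-seq reads and 0.186% to 0.213% of all RNA-seq reads. Genes for parts of the same particle thus spanned a 17.7-fold range in Ribo-seq and a 27.4-fold range in RNA-seq per transcript length, or 14.0-fold with RNA-seq reads divided by the coding length. The large and small subunits had medians of 80.0 and 65.8 RPKM in Ribo-seq and of 17.4 and 16.2 RPKM in RNA-seq. By the nomenclature of the particle, 46 members have a bacterial counterpart and 31 are named in the mitochondrial ribosome alone, and these sets had Ribo-seq medians of 70.9 and 75.1 RPKM.

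Mrps21, a small subunit protein with a bacterial counterpart, led Ribo-seq with 501 and 489 RPKM in Y1cKO, against 496 and 390 RPKM in Y1CTL. It was followed by Mrpl33 (277 ± 38.4 RPKM, SD, n = 4), Mrpl20 (263 RPKM), Mrpl51 (249 ± 8.52 RPKM) and Mrps33 (235 ± 29.5 RPKM), and neighbours in this order below Mrps21 lay within each other's spread. The lowest in Ribo-seq were Mrpl19 (26.5 RPKM), Mrpl21 (33.3 RPKM) and Mrpl37 (34.7 ± 4.23 RPKM), all of the large subunit. In RNA-seq the highest was Mrpl42, with 63.0 and 79.3 RPKM in Y1cKO, against 83.8 and 76.2 RPKM in Y1CTL. Mrpl12, the protein of the flexible stalk to which translation factors bind, came next with 60.2 and 68.5 RPKM in Y1cKO, against 78.7 and 77.9 RPKM in Y1CTL. Mrpl20 (52.3 RPKM), Mrpl34 (50.2 RPKM) and Mrps15 (47.2 ± 11.1 RPKM) followed within each other's spread, and the lowest were Mrpl19 (2.75 RPKM), Mrps14 (3.55 ± 0.397 RPKM) and Mrps25 (3.57 ± 0.622 RPKM). The order of the members thus differed between the assays, and the RNA-seq order depends on the length used: over coding length Mrps14 ranked 55 of 78 and Mrps25 30 of 78. Across the 78 members, Spearman's rho between the mean Ribo-seq and the mean RNA-seq value was 0.46, against 0.74 across all genes tested, as a description over points that share the same libraries, and with RNA-seq over coding length it was 0.61 across the members.

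**Figure D1:**
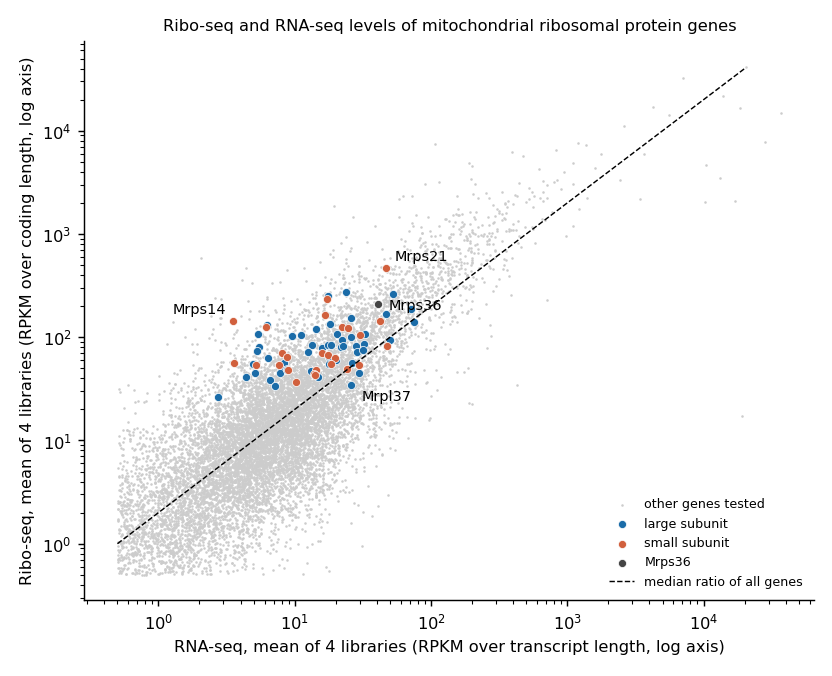
Mean of the 4 Ribo-seq libraries (vertical, RPKM over coding length, log axis) against the mean of the 4 RNA-seq libraries (horizontal, RPKM over transcript length, log axis) for each gene. Members are coloured by subunit over the other genes tested in grey; they lie between 26.5 and 469 RPKM in Ribo-seq and between 2.75 and 75.6 RPKM in RNA-seq, most of them above the dashed line of the median ratio of all genes.

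The level of ribosome fragments over transcripts was therefore compared for each gene with that of the median gene. Each library was centred on its median gene and the mean of the Ribo-seq groups set against the mean of the RNA-seq groups, both genotypes together. Of the 78 members, 70 were called higher by limma at an adjusted p under 0.05, where 39.6% of all 11792 genes tested were called higher, and 1 (Mrpl37) was called lower, against 33.6% of all genes. At an unadjusted p under 0.05 the counts were again 70 and 1, against 40.6% and 34.6% of all genes. The members' median was 1.48 on the log2 scale, against 0.11 for all genes, and the range was from -0.41 to 4.31, with 76 above 0 and 2 below 0, against 53.0% and 47.0% of all genes. In 23 members the level was above 2 and in 28 it lay within 1 of the median gene. In 66 members all 4 centred Ribo-seq values exceeded all 4 centred RNA-seq values, against 35.3% of all genes, and in 0 they lay below, against 30.9%. The medians of large and small subunit members were 1.49 and 1.38, and those with a bacterial counterpart and those without had medians of 1.48 and 1.45.

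Mrps14, a small subunit protein with a bacterial counterpart, stood at the top. Its Ribo-seq values were 150 and 144 RPKM in Y1cKO and 141 and 134 RPKM in Y1CTL, and its RNA-seq values were 3.66 and 3.98 RPKM in Y1cKO and 3.54 and 3.02 RPKM in Y1CTL. Its level was 4.31 ± 0.11 (log2 estimate ± SE, adjusted p = 1.63e-06 from limma), a value above those of 99.5% of all genes. After it came Mrpl17 (3.47 ± 0.12), Mrps16 (3.41 ± 0.11), Mrpl35 (3.38 ± 0.11) and Mrps25 (2.98 ± 0.17), of which Mrpl17, Mrps16 and Mrpl35 did not differ beyond their errors. Mrpl17 had 126 and 129 RPKM in Y1cKO and 122 and 150 RPKM in Y1CTL Ribo-seq, with 6.82 and 6.15 RPKM in Y1cKO and 6.51 and 5.35 RPKM in Y1CTL RNA-seq. The annotated transcripts of these genes are far longer than their coding part, 7.81 times as long for Mrps14, 13.8 times for Mrpl17, 6.35 times for Mrps16, 6.60 times for Mrpl35 and 11.8 times for Mrps25. With RNA-seq reads divided by the coding length, their levels were 2.54 for Mrps14, 0.82 for Mrpl17, 1.87 for Mrps16, 1.80 for Mrpl35 and 0.62 for Mrps25, all still called higher. Mrps14 then ranked 4 of 78, Mrps18c (2.92), Mrps21 (2.61) and Mrpl22 (2.58) stood above it, and it was the 1 member in the top 5 by both lengths.

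At the other end were Mrpl37 (-0.41 ± 0.13, adjusted p = 0.0197 from limma), Mrpl10, the protein at the base of the stalk (-0.23 ± 0.10, adjusted p = 0.0867), Mrps15 (0.00 ± 0.15), Mrps2 (0.03 ± 0.14) and Mrpl42 (0.06 ± 0.15). Mrpl37 had 40.8 and 31.0 RPKM in Y1cKO and 34.3 and 32.9 RPKM in Y1CTL Ribo-seq, with 23.6 and 23.7 RPKM in Y1cKO and 27.2 and 28.6 RPKM in Y1CTL RNA-seq, and its lower call was lost without Y1cKO replicate 2 (-0.27) or Y1CTL replicate 2 (-0.37). Mrpl53, Mrps7 and Mrpl34 made up the rest of the 8 members that were not called higher, with estimates of 0.26, 0.20 and 0.09. With RNA-seq over coding length, Mrps15 (0.76) and Mrpl42 (0.45) were called higher, and the lowest was Mrps17, with -0.47 against 2.24 over transcript length. Of the windows printed above with a YY1-like motif, Mrpl35 had a level of 3.38, Mrpl42 of 0.06 and Mrpl37 of -0.41 (1.80, 0.45 and 0.38 over coding length). The other members with this motif lay between: Mrps11 (1.54), Mrps27 (0.84), Mrps24 (0.82), Mrpl36 (0.75) and Mrps18a (0.59).

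**Figure D2:**
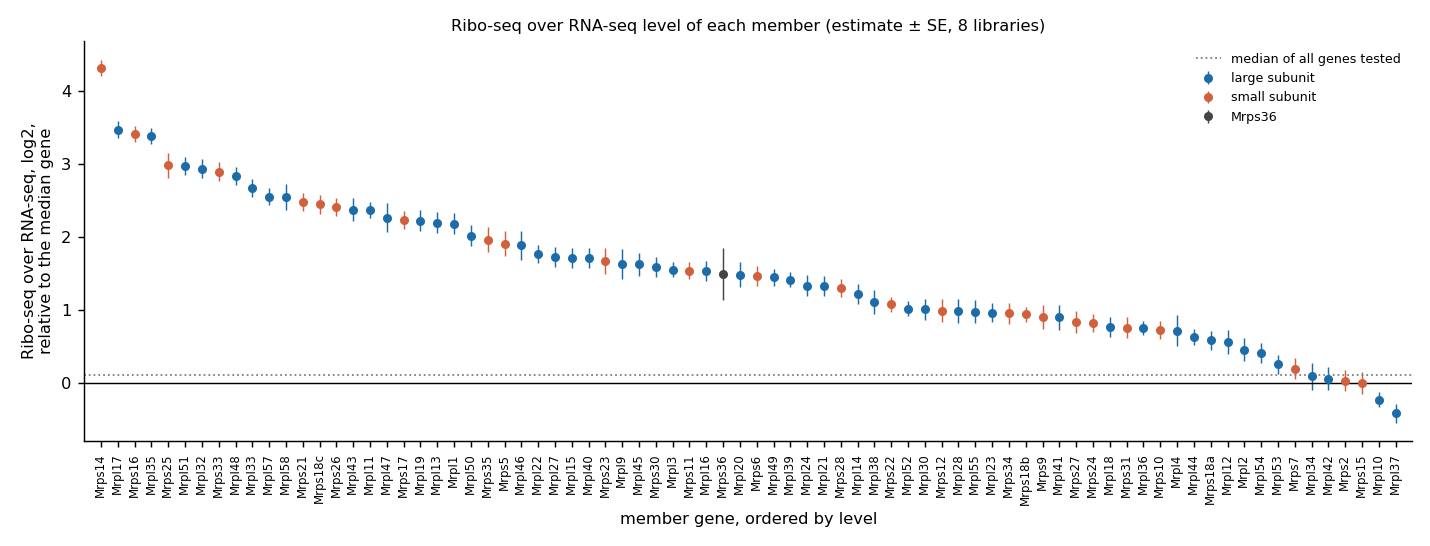
Ribo-seq over RNA-seq level of each of the 78 members (vertical, log2, relative to the median gene; points, limma estimates over 8 libraries; bars, SE), ordered from Mrps14 at 4.31 to Mrpl37 at -0.41, with RNA-seq over transcript length. The dotted line is the median of all genes tested, 0.11, and large and small subunit members are mixed along the whole range.

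Members with special roles lay inside this range. Mrps12, a protein of the decoding centre, had 40.6 and 37.4 RPKM in Y1cKO and 35.4 and 35.5 RPKM in Y1CTL Ribo-seq, and a level of 0.99 ± 0.15. Mrpl12 of the stalk had a level of 0.56 ± 0.16 (adjusted p = 0.0159 from limma), which missed the threshold without Y1cKO replicate 1 (0.42) or Y1cKO replicate 2 (0.70). Mrpl58, a peptidyl-tRNA hydrolase built into the large subunit that frees stalled chains, had 112 and 97.6 RPKM in Y1cKO and 108 and 93.8 RPKM in Y1CTL Ribo-seq, with 8.52 and 10.4 RPKM in Y1cKO and 11.6 and 7.53 RPKM in Y1CTL RNA-seq, and a level of 2.55 ± 0.18, or 1.56 over coding length. Mrps18a, Mrps18b and Mrps18c are related to the same bacterial protein and occupy different places in the ribosome, Mrps18a in the large subunit and the others in the small. Their levels were 0.59 ± 0.13, 0.94 ± 0.10 and 2.45 ± 0.13, and Mrps18a missed the threshold without Y1cKO replicate 1 (0.53). Over coding length the levels were 1.04, 1.47 and 2.92, in the same order. The Ribo-seq means of the 3 genes were 86.4, 145 and 164 RPKM, while the RNA-seq means were 32.0, 42.5 and 16.6 RPKM. By these means Mrps18c was the highest of the 3 in Ribo-seq and the lowest in RNA-seq. Its Ribo-seq values (149 to 185 RPKM) overlapped those of Mrps18b (137 to 157 RPKM).

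Gene length moved with this level. The members are short, with a median coding length of 582 bases against 1383 for all genes tested, and across all genes the level fell with coding length (Spearman's rho -0.55, a description across genes). Among the 59 members in the shortest quartile of genes (coding length 111 to 858 bases) the median level was 1.49 and 53 were called higher, against a median of 1.11 and 68.1% called higher for all 2956 genes of that quartile. Among the 19 members in the next quartile (861 to 1383 bases) the median was 1.11 and 17 were called higher, against 0.41 and 48.3% for its 2952 genes. Among the members, rho was 0.65 between the level and the ratio of transcript to coding length (0.30 across all genes) and -0.22 between the level and coding length. With RNA-seq reads divided by the coding length, as in Ribo-seq, 71 members were called higher, where 40.4% of all genes were, and 2 (Mrpl10 and Mrps17) lower, with a median of 1.31, and Mrpl37 turned to 0.38. The part of length in the level was not tested further.

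Markers of lymphocytes and macrophages were also high by this measure, where 39.6% of all genes were called higher and 33.6% lower. The 19 lymphocyte markers had a median level of 3.59 (19 called higher). A set of 12 macrophage markers, with RNA-seq medians of 7.37 to 10.6 RPKM, had 2.94 (11 called higher). Other marker lists were less uniform. The 18 beige and brown adipocyte markers tested had 1.57 (9 called higher, 4 lower), and the 15 adipocyte markers 0.58 (8 higher, 2 lower). The 7 skeletal muscle markers tested had -0.21 (1 called higher, 0 lower). Against Y1CTL RNA-seq replicate 2 alone, the RNA-seq library that held the lymphocyte markers, 72 members were above 0 with a median of 1.38, beside 75 and 1.35 against Y1cKO replicate 2, 77 and 1.67 against Y1cKO replicate 1 and 71 and 1.30 against Y1CTL replicate 1 (for all genes, 52.3% to 52.9% were above 0). Without Y1cKO RNA-seq replicate 1 and Y1CTL RNA-seq replicate 2 together, 67 members were called higher (39.8% of all genes) and none lower.

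Between genotypes, the Ribo-seq values of the members were close. At an adjusted p under 0.05, limma called 0 members and 0 of all 12602 genes tested (0.0% in each direction), as did voom on the recovered reads, and 1 member was higher (Mrpl23) and 0 lower at an unadjusted p under 0.05, against 1.62% and 1.13% of all genes. The members' median log2 difference was 0.09, against 0.01 for all genes, with 61 of 78 above 0, against 51.5% of all genes. Both Y1cKO libraries exceeded both Y1CTL libraries in 18 members, against 15.4% of all genes, and lay below both in 3, against 14.1%. The direction depended on 1 library, as Y1CTL Ribo-seq replicate 2 was the lowest of the 4 for 49 of 78 members (28.6% of all genes), and without Y1CTL replicate 2 the members' median was 0.00085, against 0.14 without Y1CTL replicate 1. It was also the library with the lowest beige marker median (40.1 RPKM), and the part of that difference in the result was not tested. In bulk tissue, fewer cells of a type and less RNA per cell cannot be told apart.

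Mrpl23, a large subunit protein beside the tunnel through which the new chain leaves, had 75.6 and 69.3 RPKM in Y1cKO Ribo-seq, against 56.4 and 54.2 RPKM in Y1CTL. The groups did not overlap, and the log2 difference was 0.39 ± 0.13 (estimate ± SE, adjusted p = 1.00 from limma). Its RNA-seq values of 16.2 and 20.3 RPKM in Y1cKO, against 16.5 and 18.6 RPKM in Y1CTL, overlapped. The next members without overlap were Mrpl53 (72.2 and 54.4 RPKM in Y1cKO, against 51.2 and 49.9 RPKM in Y1CTL), Mrpl33 (329 and 279 RPKM, against 238 and 262 RPKM), Mrpl42 and Mrpl52, with log2 differences of 0.31, 0.28, 0.26 and 0.26, none past the test. The 3 members with both Y1cKO libraries below both Y1CTL libraries were Mrps31, Mrpl11 and Mrps22, at -0.18 each, for example 57.7 and 59.4 RPKM in Y1cKO, against 64.4 and 68.6 RPKM in Y1CTL for Mrpl11, a protein of the site where translation factors bind.

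The members varied less between libraries than the median gene, but the genes compared were not matched for level. The median member stood above the median gene in both assays (74.0 against 11.4 RPKM in Ribo-seq, 17.3 against 6.55 RPKM in RNA-seq). The part of level in the variation was not tested. Over the 4 Ribo-seq libraries the members had a median coefficient of variation of 9.57%, against 13.5% for all genes, and over the 4 RNA-seq libraries 14.1%, against 22.9%. The steadiest in Ribo-seq was Mrpl36 (2.11%), with 62.5 and 61.1 RPKM in Y1cKO, against 59.8 and 59.9 RPKM in Y1CTL. The most variable was Mrps36, with 36.1% in Ribo-seq and 37.4% in RNA-seq. Except for Mrps36, all members had Ribo-seq log2 differences between -0.19 and 0.39.

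**Figure D3:**
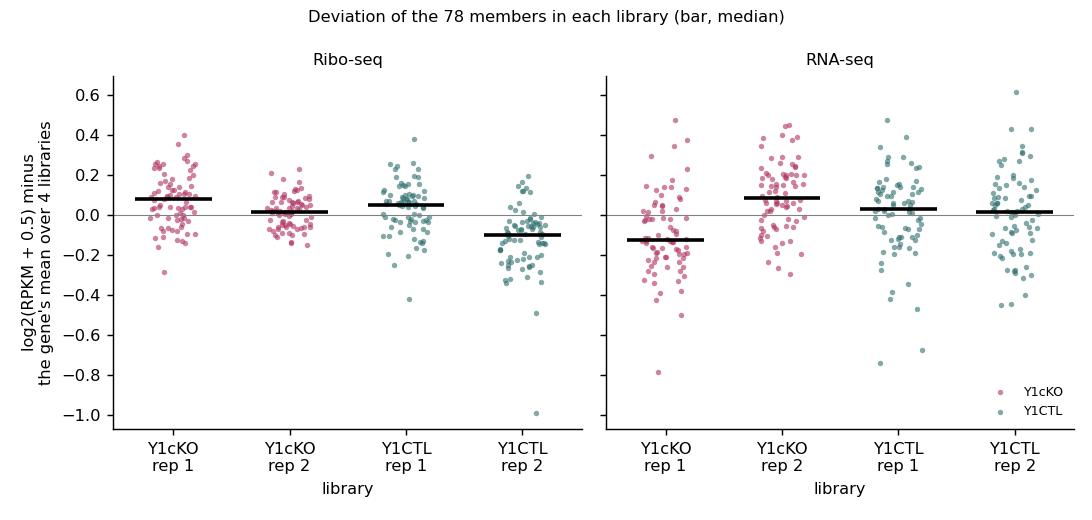
Deviation of each of the 78 members in each library from its own mean over the 4 libraries of the assay (vertical, log2(RPKM + 0.5)), for Ribo-seq (left panel) and RNA-seq (right panel); bars are medians. The medians are 0.08 and 0.02 in Y1cKO and 0.05 and -0.10 in Y1CTL Ribo-seq, and -0.12 and 0.08 in Y1cKO and 0.03 and 0.02 in Y1CTL RNA-seq.

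In RNA-seq the genotype differences of the members centred near 0, below those of all genes. Their median log2 difference was -0.02, against 0.17 for all 12435 genes tested, and 37 of 78 were above 0, against 67.2% of all genes. At an adjusted p under 0.05, limma and voom called 0 members (0.0% of all genes in each direction). At an unadjusted p under 0.05, 3 members were higher and 2 lower, against 10.0% and 1.79% of all genes. Both Y1cKO libraries exceeded both Y1CTL libraries in 16 members, against 36.9% of all genes, and lay below both in 20, against 10.7%. With the RNA-seq libraries scaled to the same median gene, the members' median was -0.18. Y1cKO RNA-seq replicate 1, in which the muscle markers stood out, was the lowest for 40 of 78 members (10.8% of all genes). This library also had the lowest beige marker median in RNA-seq (9.91 RPKM, against 27.5 to 48.8 RPKM in the others). Without Y1cKO replicate 1 the members' median was 0.09, and without Y1cKO replicate 2 it was -0.12. The parts of the muscle RNA, of the beige marker difference and of the adipocyte marker difference in these values were not tested.

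Mrpl40, a large subunit protein of the mitochondrial ribosome alone, had 16.8 and 15.7 RPKM in Y1cKO RNA-seq, against 6.91 and 10.9 RPKM in Y1CTL. This was the largest RNA-seq difference of any member (log2 0.87 ± 0.25, adjusted p = 0.402 from limma). In Ribo-seq Mrpl40 had 72.1 and 79.3 RPKM in Y1cKO, against 70.4 and 67.0 RPKM in Y1CTL, a log2 difference of 0.14 ± 0.14. Mrps6, a small subunit protein with a bacterial counterpart, had 31.5 and 29.1 RPKM in Y1cKO RNA-seq, against 17.9 and 20.7 RPKM in Y1CTL (log2 0.64 ± 0.18, adjusted p = 0.402 from limma). Its locus overlaps that of Slc5a3, an inositol transporter gene, which had RNA-seq values of 15.3 and 20.1 RPKM in Y1cKO, against 10.8 and 8.57 RPKM in Y1CTL, and reads of these genes cannot be told apart where they share sequence. Mrps6 Ribo-seq values were 135 and 129 RPKM in Y1cKO, against 90.1 and 135 RPKM in Y1CTL, which overlapped, and their log2 difference of 0.26 turned to -0.04 without Y1CTL replicate 1.

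Mrpl55 (0.51), Mrps15 (0.47) and Mrps24 (0.45) followed among the RNA-seq differences upward without overlap, and Mrpl52 had 0.43, with means of 25.3 RPKM in Y1cKO and 18.6 RPKM in Y1CTL. On the lower side were Mrps27 (-0.57), Mrpl36 (-0.45), Mrps18b (-0.45), Mrpl20 (-0.42) and Mrpl34 (-0.42). Mrpl36, a large subunit protein with a bacterial counterpart, had 17.7 and 16.2 RPKM in Y1cKO RNA-seq, against 24.1 and 22.7 RPKM in Y1CTL (adjusted p = 0.413 from limma), beside the nearly equal Ribo-seq values given above. Mrps18b had 35.0 and 36.6 RPKM in Y1cKO, against 46.4 and 52.1 RPKM in Y1CTL (adjusted p = 0.413 from limma). Its paralogs Mrps18a and Mrps18c had RNA-seq differences of 0.04 and 0.01, with groups that overlapped. In 24 members the groups were apart in RNA-seq and overlapped in Ribo-seq, against 34.2% of all genes tested in both, and in 9 they were apart in the same direction in both assays, against 6.89%: Mrps14, Mrpl33, Mrps26, Mrpl40, Mrpl49, Mrpl52 and Mrps24 upward and Mrpl11 and Mrps22 downward.

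**Figure D4:**
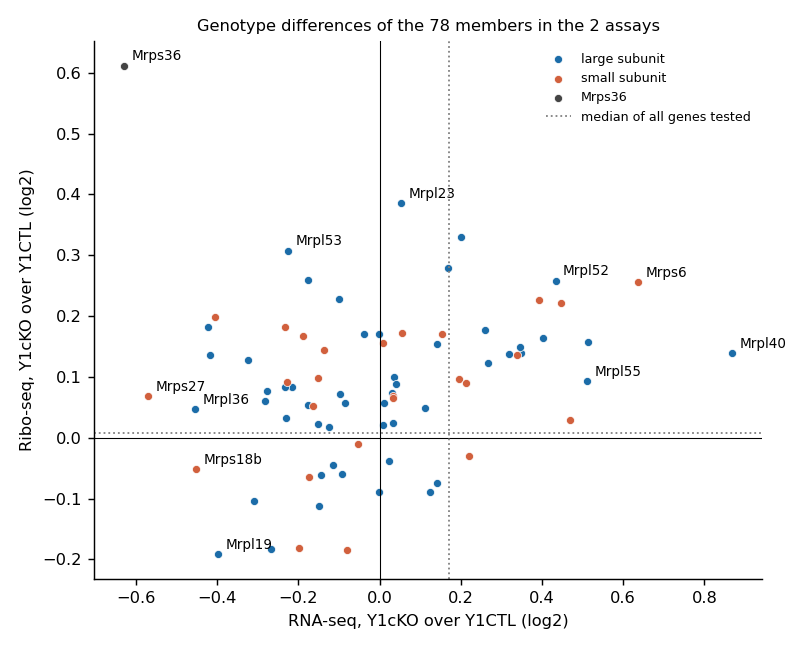
Log2 difference between Y1cKO and Y1CTL in Ribo-seq (vertical) against that in RNA-seq (horizontal) for the 78 members, coloured by subunit; dotted lines mark the medians of all genes tested (0.01 and 0.17). Members spread from -0.63 to 0.87 along RNA-seq and, leaving out Mrps36, from -0.19 to 0.39 along Ribo-seq.

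Translational efficiency (TE), the Ribo-seq over the RNA-seq value, was compared between genotypes as an interaction over all 8 libraries. At an adjusted p under 0.05, limma and voom called 0 members (0.0% of all 11792 genes in each direction), and 1 member (Mrpl36) was higher and 1 (Mrpl40) lower at an unadjusted p under 0.05, against 1.53% and 7.12% of all genes. The members' median was 0.08, against -0.17 for all genes, with 53 of 78 above 0, against 34.7% of all genes. Of the 15 adipocyte markers, 0 were above 0 in TE (median -0.84), and the part of that difference here was not tested. With libraries scaled to the same median gene the members' median was 0.23. It was -0.02 without Y1cKO replicate 1, 0.20 without Y1cKO replicate 2, and 0.18 or 0.02 when replicate 1 or replicate 2 of Y1CTL was left out. The TE values of the libraries paired by number did not overlap between genotypes in 14 members that were higher and 9 that were lower, against 9.53% and 29.8% of all genes. With the RNA-seq numbers of Y1cKO exchanged, as the column names of those tables have them, these counts were 24 and 12 (10.6% and 33.1% of all genes), and 12 and 6 members were apart under both pairings (7.63% and 26.2% of all genes).

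For Mrpl36 the log2 TE was 1.79 and 1.89 in Y1cKO, against 1.29 and 1.38 in Y1CTL, a difference of 0.50 ± 0.19 (adjusted p = 0.563 from limma). For Mrpl40 it was 2.07 and 2.30 in Y1cKO, against 3.26 and 2.57 in Y1CTL, a difference of -0.73 ± 0.29 (adjusted p = 0.563 from limma). The difference lay in the RNA-seq values of both genes, as their Ribo-seq values differed by 0.05 and 0.14 on the log2 scale. The other largest differences without overlap were Mrps27 (0.64), Mrps23 (0.60), Mrpl53 (0.53) and Mrpl15 (0.45) upward, and Mrps15 (-0.44), Mrpl55 (-0.42), Mrps6 (-0.38) and Mrps16 (-0.25) downward. Mrps27, which holds a fold found in RNA-binding proteins of organelles, had 44.8 and 44.7 RPKM in Y1cKO Ribo-seq, against 45.9 and 39.7 RPKM in Y1CTL, and 9.30 and 12.7 RPKM in Y1cKO RNA-seq, against 14.8 and 18.2 RPKM in Y1CTL.

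Mrps36, the member outside the ribosome, varied most between libraries. Its Ribo-seq values were 256 and 224 RPKM in Y1cKO, against 253 and 97.2 RPKM in Y1CTL, and its RNA-seq values were 22.0 and 42.7 RPKM in Y1cKO, against 38.6 and 58.9 RPKM in Y1CTL. Y1CTL replicate 2 was thus the lowest of its Ribo-seq and the highest of its RNA-seq libraries, and the groups overlapped in both assays. The log2 differences were 0.61 ± 0.41 in Ribo-seq, -0.63 ± 0.37 in RNA-seq and 1.24 ± 0.68 in TE, the highest of any member in Ribo-seq and TE and the lowest in RNA-seq, and none passed the test (adjusted p = 1.00, 0.521 and 0.583 from limma). Leaving out Y1CTL replicate 1, whose counterpart is then the only control and assumed to vary like the other groups, made Mrps36 the single member called in Ribo-seq (log2 1.30, adjusted p = 0.0119) and in TE (2.23, adjusted p = 0.0449), where 0.342% and 4.29% of all genes were called higher and 0.0636% and 3.85% lower, whereas leaving out Y1CTL replicate 2 gave -0.08 in Ribo-seq. The beige marker medians given above were likewise lowest in Y1CTL replicate 2 in Ribo-seq and had the same order over the 4 libraries in RNA-seq, and their part in these values was not tested.

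**Figure D5:**
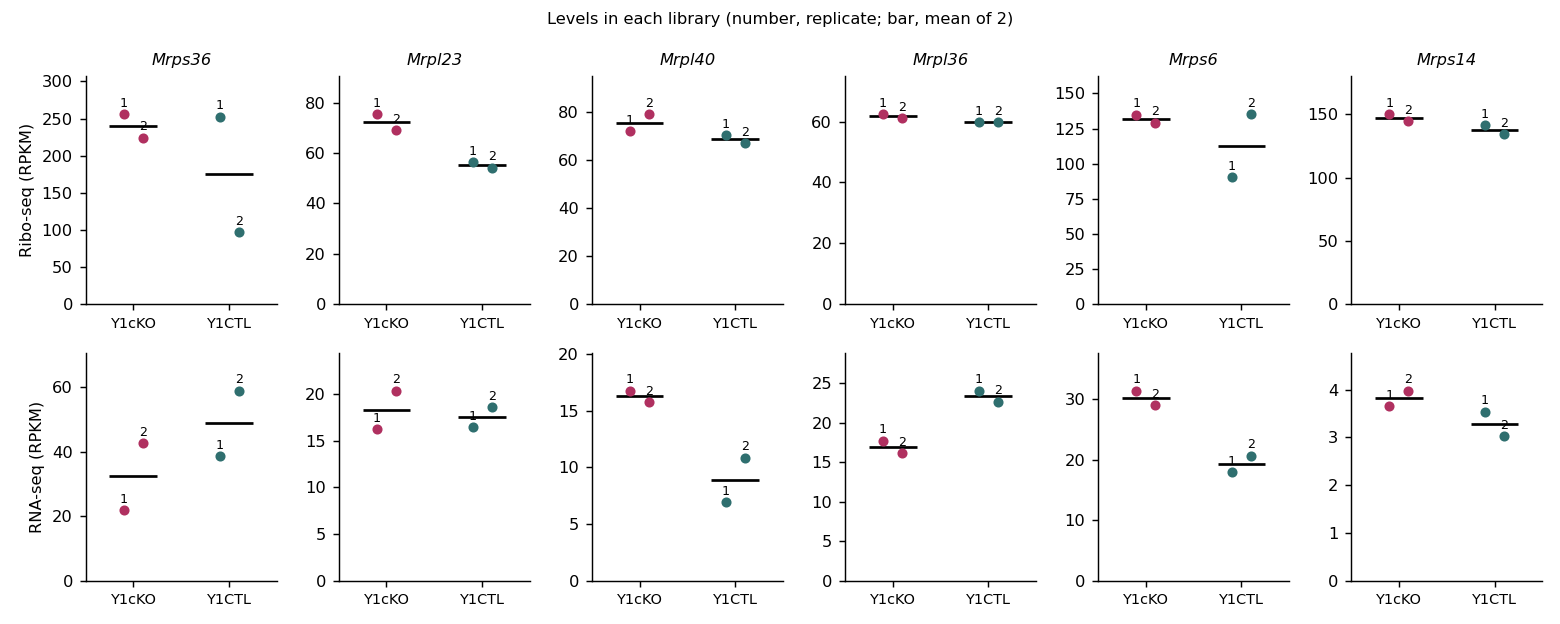
RPKM of Mrps36, Mrpl23, Mrpl40, Mrpl36, Mrps6 and Mrps14 in each library, Ribo-seq in the upper and RNA-seq in the lower row, Y1cKO left of Y1CTL; numbers mark the replicate and bars the mean of 2 libraries. Mrps36 spans 97.2 to 256 RPKM in Ribo-seq through 1 Y1CTL library, Mrpl36 stays between 59.8 and 62.5 RPKM in Ribo-seq, and Mrps14 has 134 to 150 RPKM in Ribo-seq with 3.02 to 3.98 RPKM in RNA-seq.

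Genes that work with the mitochondrial ribosome were set beside the members, with 0 genes called between genotypes at an adjusted p under 0.05 in limma in any of these lists. Of 5 subunits that carry other names (Dap3, Chchd1, Aurkaip1, Ptcd3 and Gadd45gip1), 4 were called higher in ribosome fragments over transcripts (39.6% of all genes), with a median of 1.66. Dap3, a GTP-binding protein of the small subunit, had 72.8 and 69.7 RPKM in Y1cKO and 71.5 and 69.8 RPKM in Y1CTL Ribo-seq, with 5.41 to 6.32 RPKM in RNA-seq. Of 13 translation factors of mitochondria, 12 could be tested in both assays. Of these 12, 7 were called higher and 3 lower in level (39.6% and 33.6% of all genes), led by the initiation factor Mtif3 (2.38 ± 0.16). Among 33 assembly and rRNA factors, 16 of 32 tested were called higher and 6 lower (39.6% and 33.6% of all genes), with a median of 0.34 and with Slirp, a partner of an mRNA-binding protein of mitochondria, at 5.14 ± 0.11. Between genotypes the median of the assembly factors was 0.22 in RNA-seq (25 of 33 above 0) and -0.17 in TE (9 of 32 above 0), near those of all genes (0.17 and -0.17). In RNA-seq the genotype differences with the smallest p were those of Gtpbp6, a ribosome recycling factor of human mitochondria (7.90 and 7.08 RPKM in Y1cKO, against 2.97 and 3.24 RPKM in Y1CTL, adjusted p = 0.401 from limma), and Rpusd3, a pseudouridine synthase (9.55 and 8.25 RPKM, against 3.19 and 4.92 RPKM, adjusted p = 0.401).

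The 10 products of mitochondrial DNA that were listed, which the mitochondrial ribosome itself makes, ran the other way in level. Of these, 7 were called lower and 0 higher (33.6% and 39.6% of all genes), with a median of -2.08, in poly(A)-selected RNA. Between genotypes all 10 had Ribo-seq differences above 0, against 51.5% of all genes (median 0.53, against 0.01 for all genes). In RNA-seq, 8 of 10 were below 0, against 32.8% of all genes (median -0.28, against 0.17). Their summed RNA-seq level was lowest in Y1cKO replicate 1 (123365 RPKM, against 160644 to 181298 RPKM in the others). In TE, 9 of 10 differences were above 0, against 34.7% of all genes (median 0.80, against -0.17). Their summed Ribo-seq level was 130837 and 100317 RPKM in Y1cKO, against 99285 and 63482 RPKM in Y1CTL, lowest in Y1CTL replicate 2. Their Ribo-seq medians were 5223 and 3900 RPKM in Y1cKO, against 3597 and 3616 RPKM in Y1CTL. At an unadjusted p under 0.05 none of the 10 genes was past limma's test in Ribo-seq and 1, mt-Nd6, in TE. For this gene, a subunit of respiratory complex I and the one encoded on the other strand, the Ribo-seq values were 3197 and 2081 RPKM in Y1cKO, against 1910 and 1507 RPKM in Y1CTL, and the RNA-seq values were 1638 and 2505 RPKM in Y1cKO, against 4600 and 4821 RPKM in Y1CTL (TE difference 1.82 ± 0.49, adjusted p = 0.563 from limma). The cytosolic ribosomal proteins, set beside the members for comparison, had a median level of 0.91 with 51 of 69 called higher (39.6% of all genes). Their median Ribo-seq difference between genotypes was 0.23 with 68 of 69 above 0, against 51.5% of all genes. Of the 69, 3 were higher at an unadjusted p under 0.05 from limma, against 1.62% of all genes, and 0 were called after adjustment. Their Ribo-seq medians were 456 and 394 RPKM in Y1cKO, against 415 and 316 RPKM in Y1CTL, lowest in Y1CTL replicate 2. For the products of mitochondrial DNA both Y1cKO medians were above both Y1CTL medians, while for the cytosolic set they overlapped. How far Y1CTL replicate 2 set the differences of single genes in either set was not tested.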

How the data were processed

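The authors sequenced ribosome-protected fragments and polyadenylated RNA, and deposited RPKM values, scaled by coding length in Ribo-seq and by transcript length in RNA-seq. Their processing notes name HISAT2 2.2.1 and the build mm8; no counter, annotation or strand setting is stated in the sources used here. Deposited RPKM values were whole multiples of 1 read (99.9% to 100% of values within 0.01 read), so reads and depth were computed back. Genes that a Ribo-seq table does not list were set to 0, and 24 symbols turned into dates were restored by gene identifier. Replicates differed by more than sampling noise (chi-square per degree of freedom 12.3 to 36.2), and none was taken as a copy.

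Values were set to log2(RPKM + 0.5), so that changes of low genes are understated, and tested two-sided in R 4.3.3 with limma 3.58.1 and its intensity trend, keeping genes whose mean reached 0.5 RPKM in each assay used, with Benjamini-Hochberg adjustment over all genes tested. An exact test of 2 against 2 libraries cannot go below p = 0.333. TE was the interaction of assay and genotype, and the level was fitted on libraries centred on their median gene. The fits were run on simulated reads with the same spread for all genes and without the differences in cell markers described above. That run does not show how well the calls hold in these libraries. Promoters were read from RefSeq, GRCm38.p6; coordinates are of that build.

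Same-numbered libraries were taken as 1 animal, since lysates were divided, although no label states that replicates were separate animals. This pairing entered only the TE values per library, the replicate block and the fits without an animal. The main fits of TE and level used no pairing. A fit without an animal left out the libraries of that replicate number and genotype. The headers of the Y1cKO RNA-seq tables give the replicate numbers the other way round than the labels, which were followed. Named were, of the members, for each genotype comparison the 5 largest rises and 5 largest falls without overlap of groups, the 5 highest and 3 lowest of each assay, the 5 highest and 5 lowest by level, and Mrps18a, Mrps18b, Mrps18c, Mrpl12, Mrpl58, Mrps12, Mrps36 and Mrps6; of other lists, up to 3 genes with the smallest p; others were named after their values were seen. The members, lists and roles were chosen with earlier results of these data known. Alternatives covered the pseudocount, filter, trend, voom on reads, scaling, replicate block and each animal left out; the crossed block, the coding length for RNA-seq and the fit without RNA-seq libraries rich in muscle or lymphocyte markers were added after seeing the data.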

Additional observations from a re-analysis of the deposited data

How the results depend on the processing

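Between genotypes the count of members called was 0 under all alternatives except the fits without an animal, where it ranged from 0 to 1 in Ribo-seq and TE (Mrps36, without Y1CTL replicate 1, where 0.342% and 0.0636% of all genes were called higher and lower in Ribo-seq, 2.12% and 3.20% in RNA-seq and 4.29% and 3.85% in TE). The members' median ranged from 0.00085 to 0.14 in Ribo-seq, from -0.12 to 0.092 in RNA-seq and from -0.02 to 0.20 in TE without an animal, and with libraries scaled to the same median it was -0.18 in RNA-seq and 0.23 in TE. In Ribo-seq, Mrps6 ranged from -0.036 to 0.55 and Mrps36 from -0.075 to 1.30 without a Y1CTL animal. For the level, the count called higher was 60 (of 73 tested, filter at 5 RPKM, 38.6% of all genes) to 78 (values as deposited, 63.2%), and 64 to 70 without an animal (30.2% to 41.1%); Mrps14 and Mrps25 did not enter the filter at 5 RPKM. The count called lower was 0 with no filter, with values as deposited and without the RNA-seq libraries of Y1cKO 1 and Y1CTL 2, 2 with the filter at 5 RPKM and with RNA-seq over coding length, and 0 to 1 without an animal, so that the lower call of Mrpl37 rests on the setting. The members' median level was 1.63 with no filter, 1.14 with the filter at 5 RPKM, 2.31 with values as deposited, 1.31 over coding length, 1.37 without those 2 RNA-seq libraries and 1.36 to 1.56 without an animal.

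Members near 0 in level changed sign: Mrps15 to -0.027 (pseudocount 0.1 RPKM), -0.27 (filter at 5 RPKM) and -0.042 (voom), Mrps2 to -0.24 (filter at 5 RPKM), -0.17 (coding length) and -0.0035 (without those libraries), Mrpl42 to -0.21 (filter) and -0.080 (without those libraries), Mrpl10 to 0.61 and Mrpl37 to 0.42 (values as deposited), and Mrpl37 to 0.38 (coding length); without an animal, Mrps15 ranged from -0.15 to 0.16, Mrps2 from -0.12 to 0.20 and Mrpl42 from -0.15 to 0.28. The cause of these changes was not tested. Mrpl12 lost its call with the filter at 5 RPKM (0.28), without Y1cKO replicate 1 (0.42) or 2 (0.70) and without those libraries (0.48), and Mrps18a with the filter (0.31) and without Y1cKO replicate 1 (0.53).

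With the replicate block, which follows the pairing by number, 0 members were called in each genotype comparison and 69 higher and 1 lower in level (37.6% and 31.4% of all genes). Deviations of same-numbered Ribo-seq and RNA-seq libraries correlated across genes at -0.24 in Y1cKO and -0.14 in Y1CTL, and with the pairing crossed the counts were 0 for TE and 70 for the level (38.8% to 40.0% of all genes).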

Other observations

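The other components of the 2-oxoglutarate dehydrogenase complex were looked up beside Mrps36 after its values had been seen. Ogdh had Ribo-seq values of 751 and 652 RPKM in Y1cKO, against 845 and 467 RPKM in Y1CTL, and RNA-seq values of 195 and 297 RPKM in Y1cKO, against 276 and 413 RPKM in Y1CTL. Dlst had 532 and 486 RPKM in Y1cKO, against 608 and 366 RPKM in Y1CTL Ribo-seq, and 106 and 197 RPKM in Y1cKO, against 205 and 276 RPKM in Y1CTL RNA-seq. Dld, which other complexes share, had 521 and 518 RPKM in Y1cKO, against 589 and 426 RPKM in Y1CTL Ribo-seq, and 82.2 and 148 RPKM in Y1cKO, against 158 and 164 RPKM in Y1CTL RNA-seq. As for Mrps36, Y1CTL replicate 2 was the lowest Ribo-seq and the highest RNA-seq library for each of these genes, and Y1cKO replicate 1 the lowest RNA-seq library. Ucp1, the heat-producing protein of beige adipocytes, had the same lowest and highest libraries, with 3164 and 2481 RPKM in Y1cKO, against 3586 and 955 RPKM in Y1CTL Ribo-seq, and 48.1 and 544 RPKM in Y1cKO, against 609 and 1441 RPKM in Y1CTL RNA-seq.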
